A study of Mus musculus with 2 samples.

Results

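The 7 genes described here belong to natural killer (NK) cell recognition: the signalling adaptors Fcer1g, Tyrobp and Hcst, and the receptors Fcgr3, Ncr1, Cd226 and Cd7. They were chosen by symbol, and 7 of the 32285 genes in the count matrices carry these symbols. The cells were sorted from mouse thymus as positive for yellow fluorescent protein (YFP). The control library came from Tbx21Cre Rosa26-YFP+ mice, and the conditional knockout (cKO) library from Tbx21Cre Ets1F/F Rosa26-YFP+ mice. Each library pooled 2 mice, so there was 1 sample per genotype. Both genotypes carry a reporter in the Rosa26 locus and a Cre recombinase driven from Tbx21, which encodes T-bet. The YFP gate is therefore meant to hold cells in which the driver has been active, and a loxP-flanked Ets1 to be removed only in such cells. How complete either step was is not measured here. Ets1 encodes a transcription factor of the ETS family.

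Fcer1g (FcRγ) and Tyrobp (DAP12) are small transmembrane adaptors whose tails carry an immunoreceptor tyrosine-based activation motif (ITAM). Receptors with no signalling tail of their own pair with them, and the phosphorylated motif recruits the kinases Syk and ZAP70. Hcst (DAP10) has no ITAM: it carries a motif that recruits phosphatidylinositol 3-kinase and Grb2, and it pairs with NKG2D, the product of Klrk1. Fcgr3 encodes the Fc receptor CD16 and Ncr1 the receptor NKp46, and both signal through ITAM adaptors. Cd226 (DNAM-1), a receptor for nectin-family ligands on other cells, and Cd7, an immunoglobulin-superfamily protein of T and NK cells, have no such partner. In the thymus these genes are expressed by NK cells, innate-like T cells such as invariant NKT cells, or some gamma-delta T cells. Some of them, such as Hcst and Cd226, are expressed by other T cells too.

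Barcodes under 500 genes, or with over 10% of their unique molecular identifiers (UMIs, 1 per captured transcript) on mitochondrial genes, were left out. This left 7395 cells in the control and 5903 in the cKO library. The median cell held 2666 UMIs in the control and 5533 in the cKO library, and 28.6% of the cKO barcodes against 6.76% of the control barcodes were over the mitochondrial limit. The libraries shared 29 barcodes. NK cells were those with an Ncr1 UMI and none of CD3, 105 in the control and 53 in the cKO library. Gamma-delta T cells had a Trdc UMI and CD3 (167 and 136 cells). Trav11+ T cells carried a UMI of the receptor segment of invariant NKT cells (177 and 149 cells), whose reads may be shared with near copies of Trav11. Klrb1c+ T cells had a UMI of the gene of NK1.1 (2544 and 364 cells), and CD8 T cells had CD3 and a Cd8a or Cd8b1 UMI, with none of Cd4, Trav11, Trdc or Klrb1c (811 and 552 cells). The T cell classes may share cells, as 97 control and 14 cKO cells were both Trav11+ and Klrb1c+. Another 69 control and 47 cKO cells were in both the gamma-delta and the Klrb1c+ class. Klrb1c+ cells made up 35.6% of the CD3+ T cells in the control and 10.1% in the cKO library.

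Levels are UMIs summed over the cells of a class, as counts per 1e6 UMIs of those cells (CPM), with exact 95% Poisson intervals. Ratios are cKO over control, with exact 95% conditional binomial intervals. With 1 library per genotype nothing was tested: the intervals cover counting error only, not the spread between mice, and the genotype and the library cannot be told apart. A gene is called past the fold when it differed by 1.5-fold or more, up or down, with 20 CPM or more in one of the libraries and 20 UMIs over both. Ets1 itself was lower in the cKO library in all 5 classes, from 375 to 80.1 CPM in NK cells, from 434 to 190 in gamma-delta, from 547 to 170 in Trav11+, from 523 to 156 in Klrb1c+ and from 349 to 147 in CD8 T cells. Which exons were removed is not given in the sources used here, so remaining 3′ tags do not measure how many cells kept the gene.

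The class names were set against their markers. In the NK class the 10 NK cell markers summed to 17769 CPM in the control and 19977 in the cKO library, with 10 of 10 passing the level filter. The 6 markers of innate lymphoid cells (ILC1 or ILC3) summed to 361 and 219 CPM. Of these 5 passed, 1 higher and 4 lower, beside 12.4% and 18.7% of all genes. A UMI of the T cell receptor gene Trac was in 16 of 105 control and 10 of 53 cKO cells. Whether the class holds the same mix of cells in both libraries was not tested. Of the 53 cKO cells in that class, 26 held a UMI of a gut epithelium gene, against 4 of 105 control cells, and the 9 gut markers summed to 7.32 CPM in the control and 1475 CPM in the cKO library. A group of 12 cKO cells in the class had neither Fcer1g nor Tyrobp and held the gut gene Zg16 at 11552 CPM, so these go against the name NK cell. The part of these cells in the NK values below was measured by leaving out every cell with a gut UMI. In the gamma-delta class a Trac UMI was in 95 of 167 control and 66 of 136 cKO cells. Its 10 gamma-delta T cell markers summed to 830 and 940 CPM, against 622 and 707 in Trav11+ and 643 and 673 in Klrb1c+ T cells. Of the 10, 8 passed the level filter there and 5 in each of the other 2. The name thus rests on the Trdc UMI, and how many of these cells have a gamma-delta receptor was not tested. In the CD8 class, the chemokine gene Ccl5 was at 2963 CPM in the control and 20265 in the cKO library, and whether the class holds the same kinds of cells in both libraries was not tested.

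Positions are on GRCm38, from the GENCODE vM21 annotation. Tyrobp (chromosome 7, 30413760 to 30417585, plus strand) and Hcst (chromosome 7, 30417712 to 30419854, minus strand) stand tail to tail with 126 bases between them. Fcer1g (171229572 to 171234365) and Fcgr3 (171051174 to 171064935) share the minus strand of chromosome 1, 164636 bases apart. Ncr1 lies on chromosome 7 (4337724 to 4345164) and Cd7 on chromosome 11 (121036747 to 121039418). All 7 are protein-coding. Fcgr3 has close relatives among the Fc receptor genes, so its counts are uncertain where reads could not be split.

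The stretches before the starts of Hcst and Fcer1g are shown because Hcst was lower in the cKO library in every class while Fcer1g was not, and because ETS factors bind a GGAA core. Capitals mark each GGAA and its reverse complement TTCC, and both sequences are from RefSeq on GRCm38.p6, 5′ to 3′ on the gene's minus strand. The search was chosen after the sequences were seen.
Hcst, chr7:30419855-30420104: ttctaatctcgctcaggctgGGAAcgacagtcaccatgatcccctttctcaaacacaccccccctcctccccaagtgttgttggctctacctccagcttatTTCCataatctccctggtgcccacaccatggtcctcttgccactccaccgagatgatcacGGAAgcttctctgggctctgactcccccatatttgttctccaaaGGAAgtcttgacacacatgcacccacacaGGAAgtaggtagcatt
Fcer1g, chr1:171234366-171234599: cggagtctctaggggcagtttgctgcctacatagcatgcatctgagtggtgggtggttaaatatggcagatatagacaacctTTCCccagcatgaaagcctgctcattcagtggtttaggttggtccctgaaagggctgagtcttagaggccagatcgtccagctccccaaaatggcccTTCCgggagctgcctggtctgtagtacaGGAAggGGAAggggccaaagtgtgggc
The Hcst stretch is 250 bases long and holds 5 GGAA cores on both strands together. The Fcer1g stretch stops at the annotated start of the gene, after 234 bases with 4 cores, and its full window of 250 bases holds 5, as for Hcst. The longer form AGGAAGT, which contains the core, occurs at 2 places before Hcst, beginning 46 and 17 bases before the start on the gene's strand, and not before Fcer1g or Ncr1 in windows of 250 bases. The RefSeq window of Fcgr3 lies inside the annotated gene and was left aside. Of the 27025 promoter windows of that length in the table, 93.4% hold a GGAA on either strand and 7.80% an AGGAAGT. Promoter windows were given for 4 of the 7 genes. No binding was measured, and a match describes the letters only.

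In NK cells, Hcst, Fcgr3 and Cd7 were lower in the cKO library and Cd226 was higher. So 4 of the 7 genes were past the fold, 1 higher and 3 lower, where 31.1% of the 5558 genes that passed the level filter in this class were past it (12.4% higher and 18.7% lower). In gamma-delta T cells, 1 gene was higher (Cd226) and 1 lower (Hcst) of 6 that passed the filter, beside 24% of genes past the fold, 16% higher and 8% lower. In Trav11+ T cells, Cd226 was higher and Fcer1g and Tyrobp lower among 5 that passed, beside 28.9% of genes past the fold, 19.5% higher and 9.5% lower. In Klrb1c+ T cells, Fcer1g, Tyrobp, Ncr1 and Cd226 were higher and none lower among 6 that passed, beside 23.4% of genes past the fold, 16% higher and 7.46% lower. In CD8 T cells, Cd226 was higher and Fcer1g and Hcst lower among 4 that passed, beside 30.6% of genes past the fold, 23.7% higher and 6.98% lower. Over all CD3+ T cells, Cd226 was higher and none lower among 5 that passed, beside 17.9% of genes past the fold, 13.2% higher and 4.69% lower. The median log2 ratio of all genes that passed lay between -0.03 in NK cells and 0.27 in CD8 T cells.

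**Figure D1:**
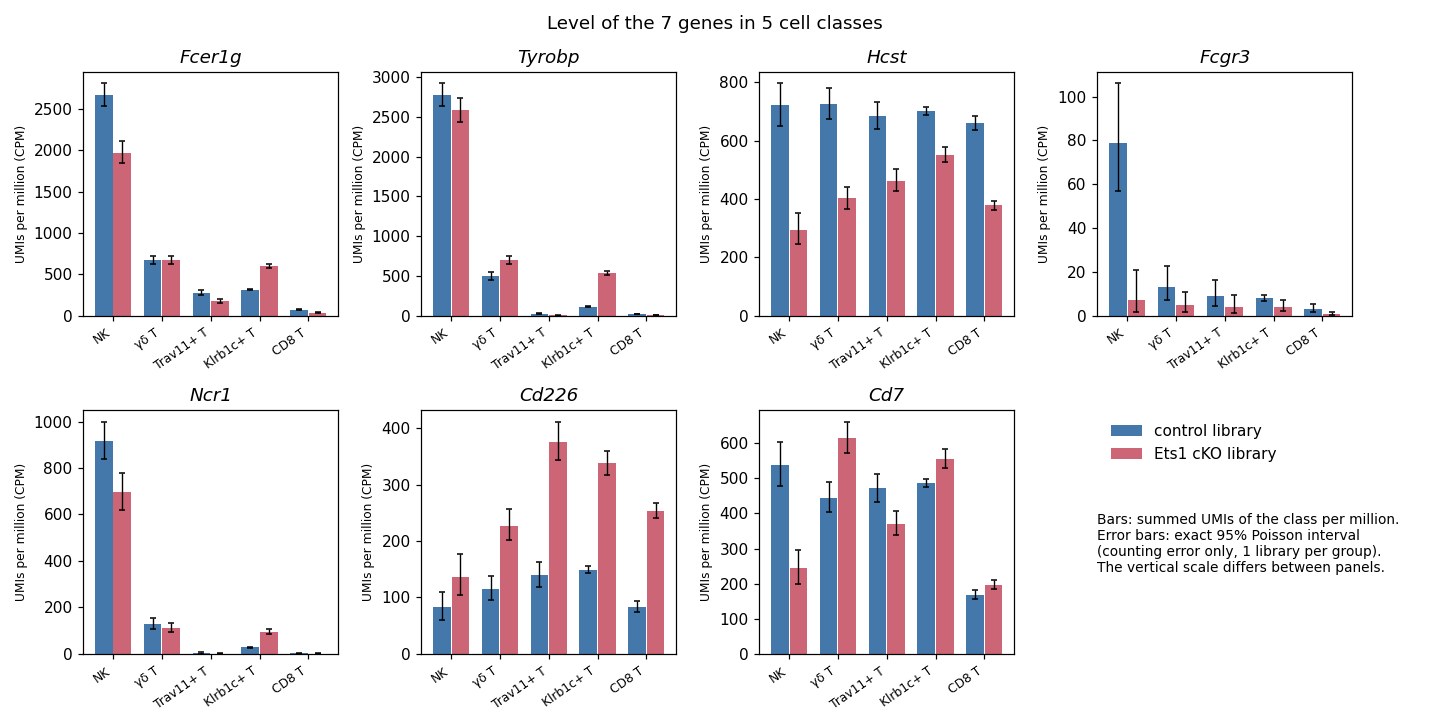
Level of each gene (vertical axis, CPM of the class, linear from 0, scale differing by panel) in 5 cell classes of the control library (blue) and the Ets1 cKO library (red); bars are summed levels and error bars exact 95% Poisson intervals, with 1 library per genotype. Hcst bars are lower and Cd226 bars higher in the cKO library in all 5 classes, whereas Fcer1g and Tyrobp lie far higher in NK cells than in the T cell classes of both libraries.

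Fcer1g was strongly expressed by NK cells of both libraries and graded across the T cell classes. In the control library its level was 2668 CPM in NK cells (2532 to 2808), 670 in gamma-delta, 315 in Klrb1c+, 274 in Trav11+ and 73.4 in CD8 T cells, and no neighbouring intervals overlapped. In the cKO library the order was the same, at 1972, 674, 599, 177 and 36.3 CPM. The libraries were close in gamma-delta T cells, with a ratio of 1.01 (0.906 to 1.12), and the cKO library was lower in NK cells, with a ratio of 0.74 (0.678 to 0.805). Without NK cells holding a gut UMI the ratio was 0.65 (0.582 to 0.723) and past the fold, and as a mean of per-cell CPM it was 0.59. Trav11+ T cells had a ratio of 0.64 (0.542 to 0.766) and CD8 T cells 0.49 (0.41 to 0.594), while Klrb1c+ T cells had 1.90 (1.80 to 2.01). When cells were thinned to 1500 UMIs before they were classed, the ratio became 2.06 in Trav11+ and 1.17 in Klrb1c+ T cells. Without cells holding a gut UMI it was 0.72 (0.597 to 0.873) in Trav11+ T cells, not past the fold, and 0.43 in CD8 T cells. In CD8 T cells the gut markers had summed to 10.00 CPM in the control and 259.7 in the cKO library. The median CD8 T cell held 2649 UMIs in the control and 8775 in the cKO library. Over the alternatives the CD8 ratio ran from 0.32 to 0.70, below 1 in 15 of 15. The highest, in cells of at least 3000 UMIs, was not past the fold. B cells, which should carry little Fcer1g, were at 84.2 CPM in the control and 73.3 in the cKO library, and the CD8 values were no higher. In the cKO library 80% of the Fcer1g UMIs of B cells were in 8 of 171 cells, so the B cell level may not measure background.

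The Fcer1g difference in Trav11+ T cells was larger in those with a Klrb1c UMI. The 97 control cells of this kind were at 299.7 CPM and the 14 cKO cells at 76.2. Without a Klrb1c UMI, 80 control cells were at 229.5 CPM and 135 cKO cells at 187, a ratio of 0.81 with an interval that includes 1 (0.641 to 1.04). Summed over all CD3+ T cells, Fcer1g was 245 CPM in the control and 189 in the cKO library, a ratio of 0.77 (0.746 to 0.801). A gut UMI was found in 196 of 7143 control and 1119 of 3597 cKO T cells, where the gut markers summed to 8.67 and 724 CPM and the 6 B cell markers to 76.4 and 210.5 CPM. Without the T cells holding a gut UMI the Fcer1g ratio was 0.79 (0.756 to 0.82). Each T cell was then thinned to 1500 UMIs to compare detection at equal depth, with exact Clopper-Pearson 95% intervals. Fcer1g was detected in 22.5% of control T cells (21.4 to 23.7) and 11.4% of cKO T cells (10.4 to 12.5), and in 32.7% and 16.6% without thinning. The cells that had it carried 1.73 Fcer1g UMIs on average in the control and 2.43 in the cKO library. B cells, as background, had an Fcer1g UMI in 10% of 30 control and 5.16% of 155 cKO cells at this depth. Most of the difference between the libraries was in T cells with 1 Fcer1g UMI, 13.2% in the control and 4.57% in the cKO library, while cells with 5 or more made up 0.770% and 1.23%. In Klrb1c+ T cells the shares with Fcer1g were 25.9% and 26.2%.

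Tyrobp was likewise highest in NK cells, then in gamma-delta and Klrb1c+ T cells, in both libraries. In the control library it was at 2779 CPM in NK cells, 497 in gamma-delta, 110 in Klrb1c+, 22.8 in Trav11+ and 19.3 in CD8 T cells, and the intervals of the last pair overlapped, as they did in the cKO library. In the cKO library it was at 2587, 696, 533, 3.17 and 5.61 CPM in these classes. In NK cells the ratio was 0.93, with an interval that includes 1 (0.861 to 1.01). The ratio was 1.40 (1.25 to 1.57) in gamma-delta and 4.83 (4.51 to 5.17) in Klrb1c+ T cells. Over the alternatives the gamma-delta ratio ran from 0.25 to 1.57, below 1 in 4 of 14, and the Klrb1c+ ratio from 1.70 to 5.23, above 1 in 15 of 15. Trav11+ T cells held 28 Tyrobp UMIs in the control and 4 in the cKO library, a ratio of 0.15 (0.035 to 0.397). In B cells Tyrobp had 0 UMIs in the control and 63.8 CPM in the cKO library. Of the latter UMIs 45% were in 3 of 171 cells. The Trav11+ and CD8 values of the cKO library lay below this B cell level, so it does not measure background for Tyrobp.

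Of the Fcer1g UMIs in Klrb1c+ T cells, 1307 of 4941 in the control and 1095 of 1804 in the cKO library were in cells with an Ncr1 UMI. A CD3+ cell with an Ncr1 UMI had more Fcer1g and Tyrobp than other CD3+ cells in both libraries. Of the Klrb1c+ T cells, 134 of 2544 in the control and 50 of 364 in the cKO library had an Ncr1 UMI. In these cells Fcer1g was at 1428 CPM in the control and 1934 in the cKO library, and Tyrobp at 1360 and 2334. They had little of the T cell receptor gene Trac in the cKO library, 113 CPM against 417 in the control. Their Eomes, a transcription factor of NK and CD8 T cells, was at 240 against 153 CPM. For the cKO cells these values go in part against the name T cell. Over all Klrb1c+ T cells the 10 NK cell markers summed to 3736 CPM in the control and 7549 in the cKO library. Of these 7 were higher and 0 lower, beside 16% and 7.46% of all genes. Of 10 T cell markers 1 was higher and 2 lower. In Klrb1c+ T cells without an Ncr1 UMI, Fcer1g was at 246 CPM in the control and 290 in the cKO library, a ratio of 1.18 (1.09 to 1.28), not past the fold. Tyrobp was at 32.8 and 115 CPM there, a ratio of 3.52 (3.02 to 4.08), and still past it.

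With each cell in 1 class only, the Klrb1c+ ratio was 1.715 for Fcer1g and 3.947 for Tyrobp. In gamma-delta T cells the same division held 32 control and 27 cKO cells with an Ncr1 UMI. The gamma-delta and Klrb1c+ classes share cells, so this division is not independent of the one above. Their Fcer1g was at 1549 and 1750 CPM and their Tyrobp at 1502 and 2257. The cells without an Ncr1 UMI had Fcer1g at 326 CPM in the control and 254 in the cKO library, and Tyrobp at 105 and 86.6. Myeloid cells also express both adaptors. The 12 myeloid or dendritic cell markers summed to 271 CPM in control and 599 in cKO Klrb1c+ T cells, and to 254 and 567 in gamma-delta T cells. In Klrb1c+ T cells 5 of the 12 passed the level filter, 4 higher and 0 lower, beside 16% and 7.46% of all genes. Most of the sum there was Cst3, Cd74, Ctss and H2-Aa, while Lyz2, Csf1r, C1qa and Mpeg1 were each under 1 CPM in both libraries. Without cells holding any UMI of the other cell types' marker lists, the Klrb1c+ ratio was 1.48 for Fcer1g, not past the fold, and 1.70 for Tyrobp. The part of myeloid or dendritic cells in these values was not tested. The mast cell and basophil markers summed to at most 14.6 CPM in any class.

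**Figure D2:**
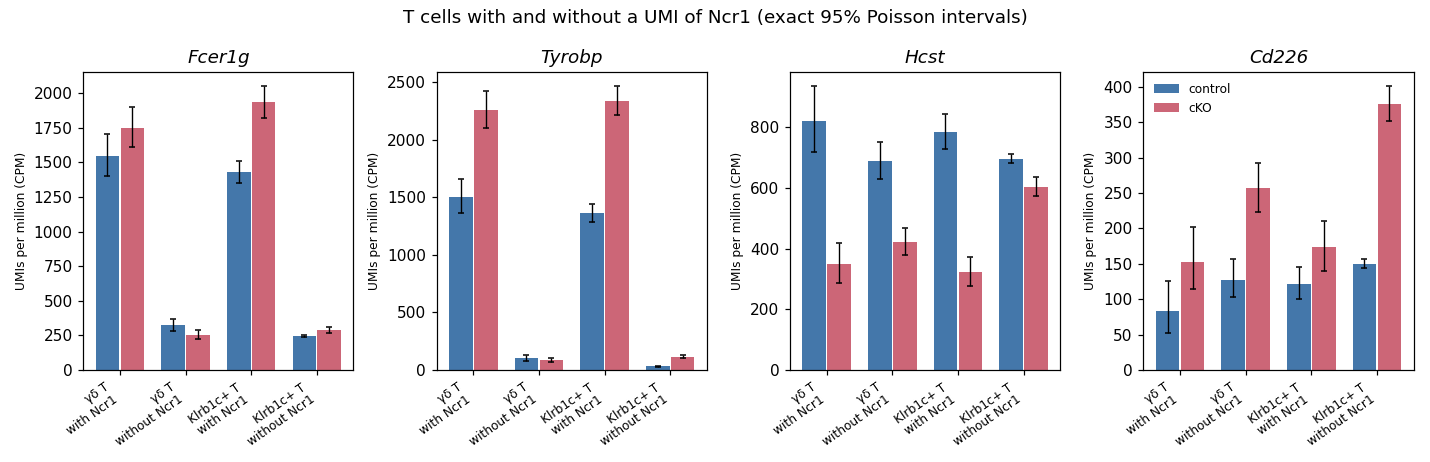
Levels of Fcer1g, Tyrobp, Hcst and Cd226 (vertical axes, CPM, linear from 0) in gamma-delta and Klrb1c+ T cells with and without an Ncr1 UMI, in the control (blue) and Ets1 cKO (red) libraries, with exact 95% Poisson intervals. Fcer1g and Tyrobp are at 1360 CPM or more in the cells with Ncr1 and at 326 CPM or less in those without, while the lower Hcst and higher Cd226 of the cKO library appear in cells with and without Ncr1.

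Hcst differed from both ITAM adaptors, being nearly even across the cell classes of the control library and lower in the cKO library in every class. In the control library it was at 726 CPM in gamma-delta T cells, 721 in NK cells, 702 in Klrb1c+, 685 in Trav11+ and 660 in CD8 T cells, and each neighbouring pair of intervals overlapped. In the cKO library it was at 552 CPM in Klrb1c+, 463 in Trav11+, 402 in gamma-delta, 378 in CD8 T cells and 295 in NK cells. NK cells had the lowest ratio, 0.41 (0.331 to 0.501), followed by gamma-delta T cells at 0.55 (0.492 to 0.622) and CD8 T cells at 0.57 (0.54 to 0.606). The ratio was 0.68 (0.607 to 0.752) in Trav11+ and 0.79 (0.746 to 0.827) in Klrb1c+ T cells, neither past the fold.

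At equal depth, 68.6% of control NK cells (57.7 to 78.2) and 38.5% of cKO NK cells (23.4 to 55.4) had an Hcst UMI. In gamma-delta T cells these shares were 66.7% and 36.2%, and in CD8 T cells 61.7% and 36.9%. The mean number of Hcst UMIs in a cell that had one hardly moved, from 1.67 to 1.68 over all CD3+ T cells. In B cells 6.67% of 30 control and 6.45% of 155 cKO cells had an Hcst UMI at this depth, far below every class above. Summed over all B cells, however, Hcst was lower in the cKO library too. It was at 87.6 CPM in the control (26 UMIs) and 29.3 in the cKO library (46 UMIs), a ratio of 0.33 (0.203 to 0.565). Without cells holding a gut UMI, NK cells were at 738 CPM in the control and 310.1 in the cKO library, a ratio of 0.42. T cells with an Ncr1 UMI were at 770 CPM in the control and 333 in the cKO library, and those without one at 687 and 467.

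**Figure D3:**
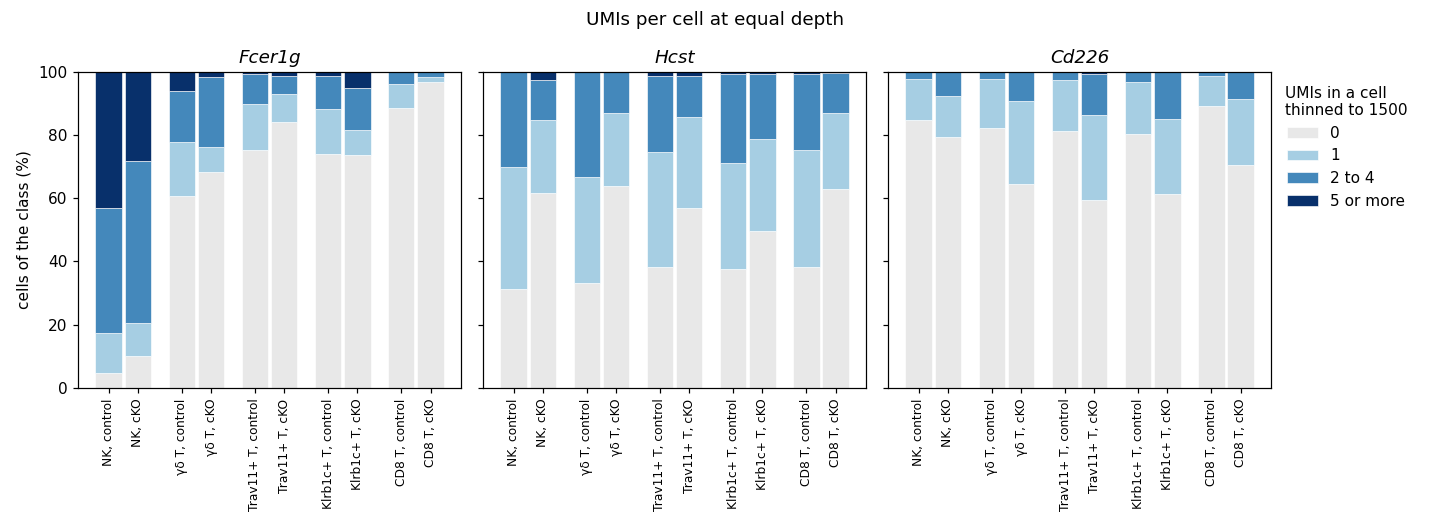
Share of cells (vertical axis, percent) with 0, 1, 2 to 4, or 5 or more UMIs of Fcer1g, Hcst and Cd226 after thinning each cell to 1500 UMIs, by class and library. The pale part with 0 Hcst UMIs grows from control to cKO in each class and that with 0 Cd226 UMIs shrinks, while 5 or more Fcer1g UMIs are seen mainly in NK cells.

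Cd226 was the only one of the 7 genes that was past the fold upward in every class. In the control library it was at 149 CPM in Klrb1c+, 139 in Trav11+, 115 in gamma-delta, 83.7 in CD8 T cells and 82.4 in NK cells. In the cKO library it was at 376 CPM in Trav11+, 338 in Klrb1c+, 253 in CD8, 227 in gamma-delta T cells and 137 in NK cells. CD8 T cells had the highest ratio, 3.02 (2.69 to 3.42), then Trav11+ T cells with 2.69 (2.26 to 3.23) and Klrb1c+ T cells with 2.27 (2.11 to 2.44). The ratio was 1.97 (1.58 to 2.48) in gamma-delta T cells and 1.65 (1.10 to 2.51) in NK cells, where it rests on 45 and 58 UMIs.

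At equal depth, 18.8% of control (13.1 to 25.6) and 40.4% of cKO (32.4 to 48.8) Trav11+ T cells had a Cd226 UMI. In CD8 T cells these shares were 10.9% and 29.4%, and in gamma-delta T cells 17.8% and 35.4%. In NK cells they were 15.1% (8.30 to 24.5) and 20.5% (9.30 to 36.5), so a difference was not detectable there at this depth. B cells had 0 Cd226 UMIs in the control and 2.55 CPM in the cKO library, far below each class. The ratio was 2.50 in Klrb1c+ T cells without an Ncr1 UMI and 1.43 in those with one.

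**Figure D4:**
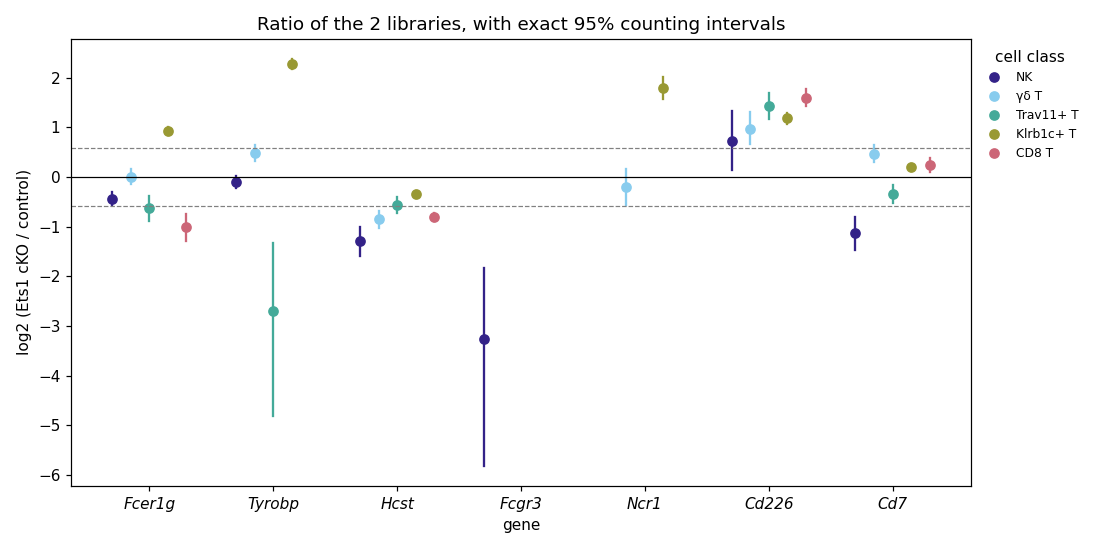
Ratio of the cKO to the control library (vertical axis, log2) for each gene, with a point per cell class that passed the level filter and its exact 95% counting interval; dashed lines mark a 1.5-fold difference, and Ncr1 in NK cells is left out because it defines that class. Cd226 points lie above the upper dashed line and Hcst points below 0, while those of Fcer1g and Tyrobp lie on both sides.

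Fcgr3 was seen mainly in control NK cells. It was at 78.7 CPM there (43 UMIs) and at 7.07 CPM in cKO NK cells (3 UMIs), a ratio of 0.10 (0.018 to 0.281). No T cell class exceeded 13.3 CPM in either library, so the gene passed the filter in NK cells only. At equal depth 12.8% of 86 control NK cells had an Fcgr3 UMI and 0 of 39 cKO NK cells, for which 3 counts, the floor used for a count of 0, would be 7.69% and the exact upper limit is 9.03%. Without cells holding a gut UMI the ratio was 0.12 (0.011 to 0.374), in 101 control and 27 cKO cells.

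Ncr1 defines the NK class, so its 915 CPM in control and 695 CPM in cKO NK cells are a description. Among T cells it was highest in gamma-delta T cells, at 130 CPM in the control and 112 in the cKO library, a ratio of 0.86 (0.672 to 1.11). Klrb1c+ T cells were at 27.3 and 94.7 CPM, a ratio of 3.47 (2.98 to 4.04). Over all CD3+ T cells the direction was the opposite, 18.7 CPM in the control and 12.1 in the cKO library. Trav11+ T cells held 3 and 0 Ncr1 UMIs and CD8 T cells 8 and 5. The Klrb1c+ gate took a smaller share of the cKO T cells, and the part of this in the Ncr1 ratio was not tested. With cells thinned to 1500 UMIs before classing, the Klrb1c+ ratio of Ncr1 was 0.94.

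Cd7 was past the fold in NK cells only, of the 5 classes. It was at 538 CPM in control NK cells and 245 in cKO NK cells, a ratio of 0.46 (0.36 to 0.571), and at 543 and 282 CPM without cells holding a gut UMI. As a mean of per-cell CPM the NK ratio was 0.72, not past the fold. In gamma-delta T cells it was at 445 and 615 CPM, a ratio of 1.38 (1.23 to 1.56), and in those without an Ncr1 UMI at 403 and 663 CPM, past the fold at 1.64. It was also past the fold in gamma-delta T cells as a mean of per-cell CPM (1.89), with thinning before classing (2.19), with each cell in 1 class only (1.68) and without the deepest cells (1.54). The ratios were 0.79 in Trav11+, 1.14 in Klrb1c+ and 1.18 in CD8 T cells. In the control library NK, Klrb1c+, Trav11+ and gamma-delta cells lay between 538 and 445 CPM with overlapping neighbours, and CD8 T cells were apart at 168 CPM.

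Within single T cells the genes were not found together to the same extent. Among CD3+ T cells thinned to 1500 UMIs, 16.2% of control cells with Fcer1g had a Tyrobp UMI (14.1 to 18.5), against 3.26% of those without. In the cKO library these shares were 18.6% (14.9 to 22.8) and 0.940%. Cd7 was seen in 53.6% of control cells with Fcer1g and 36.6% of those without, and in 61.0% and 26.5% in the cKO library. Hcst was seen in 64.1% and 61.4% in the control, and in 43.1% and 43.6% in the cKO library, so its share did not differ with Fcer1g beyond the intervals. Cd226 went the other way, with 15.2% of control cells with Fcer1g against 19.1% without, and 24.7% against 38.1% in the cKO library. Cells without Ncr1 gave the same order for Tyrobp in the control, 9.78% against 2.92%.

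**Figure D5:**
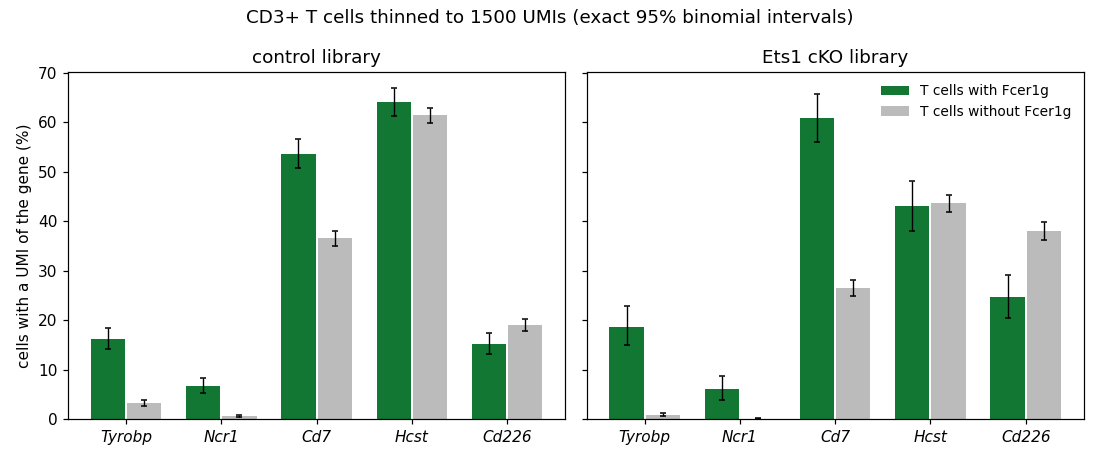
Share of CD3+ T cells (vertical axis, percent, with exact 95% binomial intervals) that had a UMI of Tyrobp, Ncr1, Cd7, Hcst or Cd226 among cells with (green) and without (grey) a UMI of Fcer1g, after thinning to 1500 UMIs, in the control and Ets1 cKO libraries. Tyrobp, Ncr1 and Cd7 are more frequent in cells with Fcer1g, Cd226 is less frequent, and the Hcst bars have overlapping intervals.

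The receptors that pair with the adaptors were taken as a list of 14 genes. In NK cells 8 passed the filter, 1 higher and 4 lower in the cKO library, with a median log2 ratio of -0.61, beside 12.4% and 18.7% of all genes and a median of -0.03. Klrk1, whose product NKG2D signals through Hcst and Tyrobp, was at 1467 CPM in the control and 756 in the cKO library, a ratio of 0.52 (0.452 to 0.588). Klra8, the Ly49H receptor that pairs with Tyrobp, was at 370 and 47.1 CPM. The list also holds Cd244a, a SLAM-family receptor that signals through SAP rather than by pairing, and without it 1 was higher and 3 lower of 7 in NK cells and 3 higher and 1 lower of 7 in Klrb1c+ T cells. Without NK cells holding a gut UMI, 0 of the 8 were higher and 4 lower. In Trav11+ T cells 7 passed, 2 higher and 3 lower, beside 19.5% and 9.5% of all genes. Klra4, the Ly49D receptor, was at 29.4 CPM in the control and 165 in the cKO library there, a ratio of 5.55 (3.92 to 8.23), while Klrk1 was at 438 and 230.4 and Klrb1c at 192 and 13.5. Klra genes are close copies of each other, so their counts are uncertain. In Klrb1c+ T cells 4 of 8 were higher and 1 lower, the latter being Klrb1c, which defines the class. The median was 0.61, beside 0.17 over all genes, and Klra4 was at 57.5 and 276 CPM. Gamma-delta T cells had 1 higher and 2 lower of 8, beside 16% and 8% of all genes, and CD8 T cells 1 higher and 1 lower of 4, beside 23.7% and 6.98%. Klrk1 and Hcst, a receptor and its adaptor, were thus both past the fold downward in NK and CD8 T cells. Without cells holding a gut UMI, 1 was higher and 0 lower of the 4 in CD8 T cells, so Klrk1 was then not past the fold downward in that class.

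Of 26 signalling genes downstream of the adaptors, 20 passed in NK cells, 0 higher and 9 lower, with a median log2 ratio of -0.50, beside 18.7% of all genes lower. Without NK cells holding a gut UMI, 7 of 20 were lower, with a median of -0.29. The 10 T cell markers also differed in this class, summing to 1274 CPM in the control and 672 in the cKO library with 4 of the 6 that passed lower, and their part in the result was not tested. Lat, the scaffold of T cell receptor signalling, was at 86.1 and 16.5 CPM there, Zap70 at 93.4 and 42.4 and Lck at 381 and 207. In the T cell classes 5 were higher and 1 lower of 20 in gamma-delta, 3 and 1 of 18 in Trav11+, 5 and 1 of 21 in Klrb1c+, and 7 and 0 of 17 in CD8 T cells. The calls over all genes also ran upward in these classes, with 16%, 19.5%, 16% and 23.7% higher. Cd247, the CD3ζ chain that also pairs with NKp46 and CD16, was higher in these 4 classes, with ratios of 1.60 in Klrb1c+ to 2.02 in CD8 T cells, and lower in NK cells at 0.58 (0.353 to 0.906). Sh2d1a, the SLAM adaptor SAP, was higher in the same 4, with ratios of 2.18 to 2.76. Syk was at 4.02 and 35.2 CPM in Klrb1c+ T cells and at 15.3 and 36.2 in gamma-delta T cells.

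The receptors that share ligands with Cd226 form a list of 3, of which Cd96 alone passed in each class. Cd96 was at 71.4 CPM in control and 16.5 in cKO NK cells, a ratio of 0.24 (0.087 to 0.522), and was not past the fold in the T cell classes. Among 7 related surface receptors, Cd160 and Slamf7 were higher in the cKO library in all 4 T cell classes. Cd160, an immunoglobulin-superfamily receptor of cytotoxic cells, had ratios of 1.63 in CD8 to 1.97 in gamma-delta T cells. Slamf7 had ratios of 1.80 in Trav11+ to 2.58 in CD8 T cells. In NK cells 6 of the 7 passed the filter, 0 higher and 2 lower (Crtam and Cd84), beside 12.4% and 18.7% of all genes. Without NK cells holding a gut UMI the direction changed: 5 passed, 2 higher and 0 lower, with a median log2 ratio of 0.49.

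The genes most like each member were ranked by Pearson's r of log2(CPM + 5) over 10 profiles, 5 classes in 2 libraries with each cell in 1 class only, among 7143 genes. This is a description over profiles that share libraries and depth. An Ncr1 UMI defines the NK class, so 2 of the profiles are high in Ncr1 by the rule and genes of NK cells follow it. Tyrobp and Ncr1 were nearest to each other, with r = 0.99, and Fcer1g was nearest to Klra7 (r = 0.98) and Klrk1 (0.97). Hcst was nearest to Arhgap9 (0.96), Senp2 (0.95) and Apobec3 (0.95), and its r with Fcer1g was -0.03. Fcgr3 was nearest to Phactr3, Wdfy1 and Klra8, and Cd226 to F2r, Supt20 and Tcea1. Cd7 was nearest to Golph3, Grina and Fam8a1.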

How the data were processed

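The deposited files hold, for each of the 2 libraries, whole-number UMI counts per gene and cell barcode. Per the labels, YFP+ thymus cells of 2 mice per genotype were sorted and run with the 10x Genomics 3′ protocol. The submitters' processing notes name Cell Ranger 2.1.1 and the build mm10, whereas the matrix header gives software version 3.0.0. What annotation and alignment settings were used is not given in the sources used here. The counts are not normalized, and reads were collapsed to UMIs before deposit.

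Cells were filtered, classed by UMIs of marker genes and summed per class and library as described above. Ratios had 0.5 UMIs added to both counts. Doublets were not removed and no caller was run, and an alternative left out the 5% deepest cells. Thinning to 1500 UMIs left out 2194 control and 1297 cKO cells that were shallower. Values were computed with Python 3.11.15, numpy 2.4.6, scipy 1.17.1 and pandas 2.3.3, and the scripts were tested on simulated data. Of the 32285 gene identifiers, 99.6% are in GENCODE vM21.

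All 7 genes are named in all classes. From each list, genes past the fold could be named, at most 6 per list and class, and the 3 nearest genes by likeness. The genes, classes and lists were chosen with earlier results of these data known. Ccl5, the divisions of T cells by Ncr1, Klrb1c, Lgals3 and Izumo1r, that of NK and T cells by gut UMIs and the list without Cd244a were chosen after values were seen. Some marker genes are not reported here.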

Additional observations from a re-analysis of the deposited data

Results flagged for a closer look

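Fcer1g moved in opposite directions between T cell classes of the same 2 libraries. Its log2 ratio, cKO over control, was -0.63 in Trav11+ and -1.02 in CD8 T cells, but 0.93 in Klrb1c+ T cells. Tyrobp did the same, with -2.71 in Trav11+ and 2.27 in Klrb1c+ T cells. With cells thinned to 1500 UMIs before classing, the log2 ratio of Fcer1g became 1.04 in Trav11+ T cells, the same direction as in Klrb1c+ T cells, where its linear ratio of 1.17 was not past the fold. Without T cells holding an Ncr1 UMI its linear Klrb1c+ ratio was 1.18. Its linear Trav11+ ratio was 0.81 with each cell in 1 class only and 0.72 without cells holding a gut UMI, neither past the fold. These differences between classes were not tested, since each class has 1 library per genotype, and the Trav11+ and Klrb1c+ classes share cells.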

How the results depend on the processing

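No paired analysis was possible because each genotype has 1 library and no replicate number. Of 494 recomputed ratios, 379 stayed within the counting interval. In 29 the direction changed, over 10 pairs of gene and class, of which 2 had been past the fold. Those not past it include Tyrobp in gamma-delta T cells (0.25 to 0.97 in 4 alternatives), Fcer1g there (main ratio near 1), Ncr1 in CD8 T cells (1.18 to 2.41 in 4) and Cd7 in CD8 T cells (0.85 to 0.96 in 3). The 2 past the fold changed when cells were thinned to 1500 UMIs before classing: the log2 ratio of Fcer1g in Trav11+ T cells became 1.04, with 40 control and 46 cKO cells left, and that of Ncr1 in Klrb1c+ T cells became -0.087. Cd226 was higher and Hcst lower in the cKO library in all 5 classes under every alternative run, with Cd226 ratios of 1.64 to 3.65 and Hcst ratios of 0.30 to 0.87. Of the counts of genes past the fold, 6 of 82 moved by over 1.5 times. The 4 of Klrb1c+ T cells became 2 with thinning before classing, and 2 without T cells holding an Ncr1 UMI, an alternative chosen after seeing the data. The 3 of Trav11+ T cells became 1 when each cell was in 1 class only, and 1 when cells with any UMI of the other cell types' marker lists were left out. The latter raised the 2 of gamma-delta T cells to 5 and left 5 cKO NK cells. A fold of 2 brought the gamma-delta count to 0. T cells with a Trac UMI, also added after seeing the data, kept the Fcer1g ratio in Klrb1c+ T cells at 1.61. Leaving out T cells with a gut UMI, another later addition, moved no count by over 1.5 times. With 53 cKO NK cells, genes under 20 CPM in NK cells rest on a handful of UMIs. The spread between mice is unknown.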

Other observations

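The higher Cd226 of cKO T cells was uneven among them. T cells with a UMI of Lgals3, the gene of galectin-3, had Cd226 at 139 CPM in the control (1443 cells) and 345 CPM in the cKO library (2783 cells), a ratio of 2.48 (2.34 to 2.63). T cells without an Lgals3 UMI were at 137 CPM (5700 cells) and 167 CPM (814 cells), a ratio of 1.21 (1.13 to 1.31). Those with a UMI of Izumo1r, the gene of folate receptor 4, were at 155 and 180.3 CPM, a ratio of 1.17 (1.07 to 1.27). A cell with a UMI of a given marker tends to be a deeper cell, and the part of depth in these values was not tested.

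Hcst showed the reverse in the same cells. With an Lgals3 UMI it was at 679 CPM in the control and 499.9 in the cKO library, a ratio of 0.74 (0.714 to 0.76). Without one it was at 695 and 316 CPM, a ratio of 0.46 (0.433 to 0.478). Cd7 was at 479 and 423 CPM with an Lgals3 UMI, and at 375 and 198 CPM without one.

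Fcer1g and Tyrobp were low in cKO T cells with an Izumo1r UMI. The 2216 control cells of this kind had Fcer1g at 175 CPM and the 387 cKO cells at 58.9 CPM, a ratio of 0.34 (0.292 to 0.387). Tyrobp was at 32 CPM and 4.07 CPM in these cells.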
